A study of Mus musculus with 18 samples.

Results

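RUNX factors are the DNA-binding subunits of the core binding factor, a transcription factor that is made up of a RUNX protein (*Runx1*, *Runx2* or *Runx3*) and of the subunit *Cbfb*, which does not contact DNA itself but increases the affinity of the complex for its site. *Runx1* is required for the endothelial-hematopoietic transition (EHT), in which hemogenic endothelium gives rise to blood cells; *Gfi1* encodes a zinc finger repressor that is a known target of *Runx1* and that, together with its paralog *Gfi1b*, turns off endothelial genes during this step. *Runx2* is best known as the master regulator of bone formation, and *Runx3* for its roles in T cells and neurons. The 5 genes *Runx1*, *Runx2*, *Runx3*, *Cbfb* and *Gfi1* were selected by name and not by their values. Of 20066 gene names in the table of differentiation stages 4 are members, with 9 transcription start site (TSS) rows of 22089, and all 5 are among the 20268 gene names in the table of fibroblasts. *Cbfb* expression in the stages was not analysed here.

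RNA-seq of mouse cells (strain 129) was used throughout. The first table follows blood development in vitro from an embryonic stem cell line with a GFP reporter in the Brachyury (Bry) gene, from embryonic stem cells (ESC) through mesoderm (MES, positive for Bry-GFP and negative for Flk1), hemangioblast (HB, positive for both), hemogenic endothelium (HE, with Tie2 and cKit but no CD41) and hematopoietic progenitors (HP, CD41+) to macrophages (MAC, CD11b+). It holds 1 FPKM value (fragments normalized for transcript length and library size) per TSS and stage, in which the authors combined the 2 replicates of ESC, MES, HB, HP and MAC. The HE column comes from a sample of another series that the submitters placed in the same table; it is used here as the authors' value. The second table holds 8 single libraries of embryonic fibroblasts (MEFs) taken at embryonic day 14.5, which were left untreated (uFIB) or given factors for reprogramming. The factor sets were SL (*Scl*, also called *Tal1*, plus *Lmo2*), SFGL (the same pair plus *Fli1* and *Gata2*) and FGL (SFGL minus *Scl*), and every condition has 1 library from day 12 and 1 from day 21. None of the factor sets contains a RUNX gene, *Cbfb* or *Gfi1*. The MEFs were wild type or carried an inducible TAL1 transgene (iTal1-2A-GFP, switched on by doxycycline), and the labels do not tell which libraries came from which. Neither do they tell whether day 12 and day 21 come from the same culture.

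Summed over each list, the markers of a stage were highest where the label places them. ES cell markers summed to 569 FPKM in ESC, mesoderm markers to 277 in MES, hemogenic endothelium markers to 263 in HE, progenitor markers to 5305 in HP and macrophage markers to 1105 in MAC; hemangioblast markers were at 144 in HB and at 142 in HE. Single genes did not all follow their sum. *Mixl1* (46.9 FPKM in MES and 80.4 in HB) and *Eomes* (34.9 and 55) were highest in HB, *Kdr* in HE, and *Kit* and *Tal1* in HP. *Hbb-bh1* alone held 5182 FPKM of the progenitor sum in HP. The gates themselves used some of the marker genes (*Kdr*, *Tek*, *Kit* and *Itga2b*). Processing notes name Bowtie and HOMER for ESC and Cufflinks for the other stages. In the MEFs, summed fibroblast markers (7 genes, none at 0 in any library) stood at 7253 and 5650 FPKM in uFIB, between 1261 and 2519 in SL and SFGL, and at 6193 and 5717 in FGL, whereas 4 neutrophil and mast cell markers were at 1.51 and 3.7 FPKM in uFIB and between 615 and 1579 in SL and SFGL. FGL had 166 FPKM of the latter at day 12 but 2.23 at day 21. The library labelled FGL at day 12 also held 7.04 FPKM of *Tal1*, a factor not in its label, and FGL at day 21 held 3.35 FPKM of *Fli1* against 3.02 in uFIB, although *Fli1* is in the label. In such bulk samples, a change in the share of a cell type and a change in RNA per cell cannot be told apart.

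*Runx1* was low at the start of differentiation and then came up in 2 steps. Its level, summed over TSS rows, was at 0.367 FPKM for ESC and 0.585 for MES, reached 4.87 in HB and 3.94 in HE, and then 19.2 in HP and 9.73 in MAC. The HP value was thus the highest of the 6 columns. On a log2(FPKM + 1) scale, *Runx1* increased by 1.89 (8.33-fold in FPKM) from MES to HB, where 5.83% of the genes with at least 1 FPKM changed at least 2-fold, and by 2.03 (4.88-fold) from HE to HP, where 14.7% did. Between these steps it was flat within the 2-fold limit (-0.25 from HB to HE). From HP to MAC the level went down by 0.91, just inside the limit, but the whole MAC column lies higher: its upper quartile was 18.1 FPKM against 10.8 in HP, and the median difference of all genes was 0.46. Relative to this shift the difference of *Runx1* was -1.37, and -1.57 after scaling to the same upper quartile. As each stage has 1 value, none of these differences was tested.

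The table lists 2 TSS rows for *Runx1* (chr16:92601466-92826066 on GRCm38, minus strand), a gene known for a distal and a proximal promoter. TSS7778 carried nearly all of the signal, with 100% of the summed value in ESC, MES and HB, 99.2% in HE, 93% in HP and 97.6% in MAC. The other row, TSS7779, was listed at 0 in ESC, MES and HB, appeared at 0.0333 FPKM in HE and reached 1.35 FPKM in HP, which was 7.02% of the total, before it went down to 0.231 FPKM in MAC. The second row thus came up with the second step of the gene. Both rows are given with the locus of the whole gene, so that the row of each promoter is not known, and Cufflinks divides reads of shared exons between them.

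RefSeq (GRCm38.p6) places the starts of the 2 *Runx1* promoters far apart on chromosome 16. The 100 bases before each start are shown because both hold 1 copy of the GFI1 word AATCAC, here read on the other strand (GTGATT, in capitals). The window of 300 bases around a start (250 before and 50 after) contained this word in 10.4% of 32851 RefSeq promoters.
*Runx1* distal, chr16:92826075-92826174, minus strand: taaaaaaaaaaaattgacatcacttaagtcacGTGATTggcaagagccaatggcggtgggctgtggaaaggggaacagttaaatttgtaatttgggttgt
*Runx1* proximal, chr16:92697330-92697429, minus strand: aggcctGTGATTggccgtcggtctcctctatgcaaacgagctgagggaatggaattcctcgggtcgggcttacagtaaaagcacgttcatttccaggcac
The word starts 68 bases before the distal start and 94 bases before the proximal one. Each window also had 1 ETS word (CCGGAA or AGGAAG, in 45.2% of all windows) further upstream, and neither had a GATA word (AGATAA or TGATAA, in 18.6%). These matches are letters only and say nothing about binding.

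Promoter windows of the 3 RUNX genes share a longer stretch. The windows at the distal start of *Runx1*, the single listed start of *Runx2* and the distal start of *Runx3* all hold the same 18 bases, with 2 copies of ACCACA, the RUNX word TGTGGT read on the other strand. It was looked for after the sequences had been seen. The 18 bases are printed in capitals within 30 bases of each gene.
*Runx1* distal, chr16:92826025-92826054, minus strand: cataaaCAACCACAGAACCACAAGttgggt
*Runx2*, chr17:44814583-44814612, minus strand: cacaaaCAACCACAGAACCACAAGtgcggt
*Runx3* distal, chr4:135120503-135120532, plus strand: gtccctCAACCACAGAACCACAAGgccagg
In *Runx1* the stretch covers bases 27 to 44 and in *Runx2* bases 22 to 39 of the transcript, while in *Runx3* it lies 136 to 119 bases before the start. Of the 32851 windows, 4 contained it, namely those of the 3 RUNX genes and of *Gm16225*, whose window overlaps that of *Runx3* by 232 bases on the opposite strand. At least 2 RUNX words (TGTGGT or TGCGGT, both strands) were found in 2.86% of all windows. *Runx2* has 4 of them; the proximal windows of *Runx1* and *Runx3* and the windows of *Cbfb* and *Gfi1* have none. The 3 genes with this shared stretch differed widely in level in the data below.

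*Runx2* and *Runx3* stayed below 0.35 FPKM in all 6 columns. *Runx2*, with 4 TSS rows, ranged from 0.00305 FPKM in MES to 0.311 in MAC, and *Runx3*, with 1 TSS row, from 0.0211 in HE to 0.202 in HB. Neither reached the minimum of 1 FPKM needed for a call at any transition. The T cell markers *Cd3e*, *Cd4* and *Cd8a* summed to at most 0.274 FPKM in any stage. The RUNX transcripts of developing blood were therefore mostly *Runx1*, whose share of the summed RUNX FPKM was 73.3% for ESC and 90.7% for MES and then 95.1% in HB, 99.2% in HE, 99% in HP and 95.9% in MAC (the plot of the RUNX make-up). The sum itself was only 0.501 FPKM in ESC and 0.645 in MES, so that the shares of these stages rest on very low values.

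*Gfi1* (chr5:107716655-107725805, minus strand) came up 1 stage after *Runx1* and had its highest value in HE. Its values were 0.119 FPKM for ESC, 0.0166 for MES and 0.331 for HB, followed by 4.19 in HE, 1.92 in HP and 0.035 in MAC. The increase from HB to HE was 1.96 on the log2(FPKM + 1) scale (12.7-fold in FPKM), where 13.5% of genes changed, and the decrease from HP to MAC was -1.50, or -1.95 relative to the median of all genes, where 47.3% changed. From HE to HP the level differed by -0.83, within the limit on this scale. In FPKM it went to 0.458 of the HE value, and with a pseudocount of 0.1 this step was called. Without the HE column, *Gfi1* would read as a gene that rose from HB to HP, by 1.13. *Gfi1* has 2 TSS rows as well: TSS15553 held 68.2% of the sum in HB, 74.7% in HE and 83.4% in HP, and TSS15552 the rest, at 0.105, 1.06 and 0.318 FPKM. Both rows had their highest value in HE.

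The paralog *Gfi1b* followed a different course. It went from 0.802 FPKM in HB to 1.79 in HE and 23.4 in HP, and returned to 0.319 in MAC. *Gfi1* exceeded *Gfi1b* 2.34-fold in HE, while the ratio was 0.413 in HB and 0.082 in HP. In HE the order of levels per transcript length was thus *Gfi1*, *Runx1* and *Gfi1b*, and in HP *Gfi1b*, *Runx1* and *Gfi1*. No replicate spread is available to tell whether *Gfi1* (4.19 FPKM) and *Runx1* (3.94 FPKM) differed in HE.

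**Figure D1:**
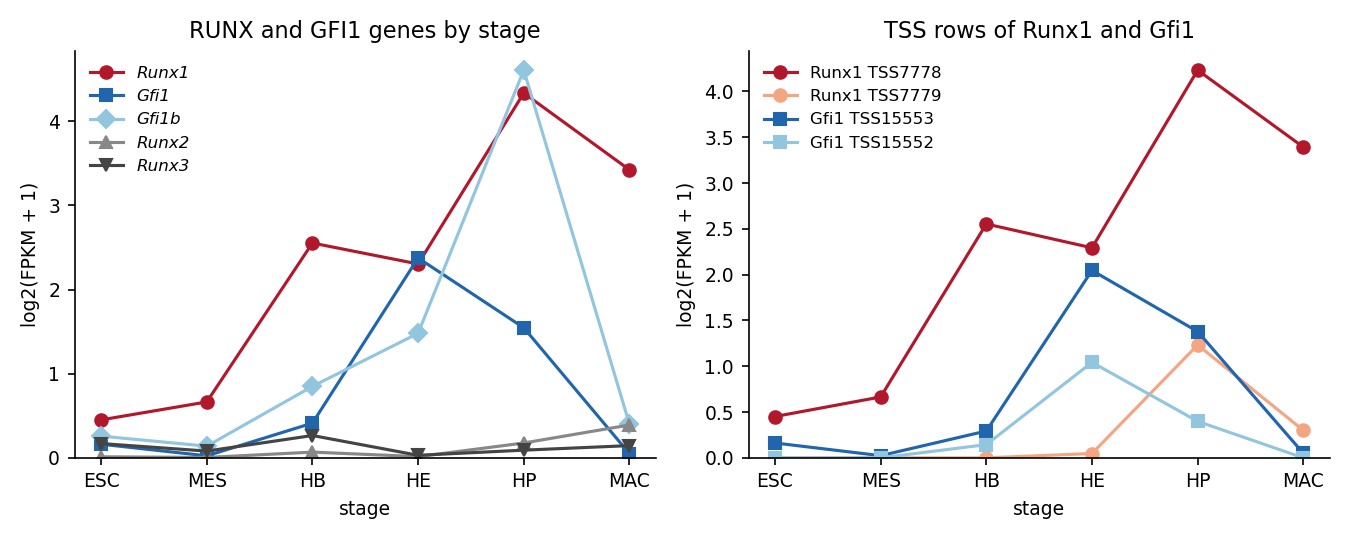
Levels on a log2(FPKM + 1) scale (vertical axis) in the 6 stages (horizontal axis), 1 value per point, for the RUNX and GFI1 genes (left) and for each TSS row of *Runx1* and *Gfi1* (right). *Runx1* rises in HB and in HP, *Gfi1* has its highest value in HE (4.19 FPKM) and *Gfi1b* in HP (23.4 FPKM); *Runx2* and *Runx3* stay near 0.

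The called members were 0 of the 4 in the table from ESC to MES (14.2% of all tested genes), and then 1 at every later transition. This was *Runx1* from MES to HB (5.83% of all tested genes) and *Gfi1* from HB to HE (13.5%). It was *Runx1* again from HE to HP (14.7%) and *Gfi1* from HP to MAC (47.3%). Between 0 and 2 of the 4 had at least 1 FPKM at a given transition, and these could pass only through the stage in which they are high, so the counts are a description of single genes and do not set the family apart from the background.

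Genes known as RUNX1 targets in blood were mostly low until HP. Of 20 such genes, 17 had at least 1 FPKM in HE or HP, and 16 of these rose at this step, with a median difference of 2.14 against -0.09 over all genes tested. The share of all genes that changed at this step was 14.7%. Many of the list, such as *Pf4* and *Sfpi1*, were below 1 FPKM in HE and passed only through HP, so they could only rise. The platelet chemokine gene *Pf4* went from 0.148 to 23 FPKM, *Sfpi1* (PU.1) from 0.451 to 16.7, *Nfe2*, an erythroid and megakaryocytic factor, from 4.99 to 54.5 and *Gfi1b* from 1.79 to 23.4 FPKM. The 1 gene that fell, named because it was the exception, was the myosin light chain gene *Myl9*, from 23.3 to 6.17 FPKM. At earlier steps 2 of the list rose from MES to HB (*Zfpm1* and *Itga2b*) and 4 from HB to HE (*Itga2b*, *Nfe2*, *Myl9* and *Myb*); none changed from ESC to MES. From HP to MAC 7 rose and 10 fell, the largest differences being those of *Cd53* (3.46 to 331 FPKM), *Csf1r* (2.97 to 234), *Itgb2* (7.95 to 353) and *Gfi1b*. The shares of all genes were 5.83% from MES to HB, 13.5% from HB to HE, 14.2% from ESC to MES and 47.3% from HP to MAC.

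Most of the endothelial genes that are known to be repressed in the EHT rose into HE and fell after it. Of 15 in the table, 13 rose from HB to HE (median difference 2.51 against -0.01 over all genes) and 14 fell from HE to HP (median difference -2.18). The shares of all genes that changed at these steps were 13.5% and 14.7%. Several of the list, such as *Sox17* and *Nos3*, were below 1 FPKM in both HB and HP. These passed only through HE, so their direction at both steps was set by the filter. *Vwf*, named as the exception at the second step, went from 1.03 FPKM in HE to 2.67 in HP and 15.8 in MAC. The angiopoietin receptor gene *Tek*, which was also used for the HE gate, went from 2.14 to 110 and then to 10 FPKM. Vascular cadherin (*Cdh5*) went from 1.7 to 78.5 and 10.8 FPKM, nitric oxide synthase *Nos3* from 0.556 to 13 and 0.552, and *Sox17* from 0.65 to 8.41 and 0.385 FPKM. Before HE, 6 of the endothelial genes rose from MES to HB (5.83% of all genes changed), with *Kdr*, *Sox7*, *Esam* and *Tek* showing the largest differences. From ESC to MES 2 (*Pecam1* and *Tek*) fell (14.2% of all genes changed), and from HP to MAC *Vwf* rose and 6 fell (47.3% changed). Fibroblast markers were also highest in HE among the stages, at 107 FPKM against 22.2 in HB and 37.9 in HP; their part in these differences was not tested.

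Factors known to bind the *Runx1* enhancers included several that rose at the same step as *Runx1*. Of 11 such regulators 6 rose from MES to HB, and *Tal1* (0.704 to 19.9 FPKM), *Lmo2* (4.45 to 56.5), *Fli1* (0.623 to 14.6) and *Gata2* (0.471 to 6.48) had the largest differences. From HB to HE 5 rose and 2 fell, the largest differences being those of *Erg* (0.768 to 20.8 FPKM), *Etv2* (46.7 to 6.43), *Meis1* and *Lyl1*. From HE to HP 4 rose and 2 fell (*Gata1*, *Myb*, *Erg* and *Lyl1* differed most), from HP to MAC 6 fell, and from ESC to MES 2 rose and 2 fell. In the order given, the shares of all genes that changed were 5.83%, 13.5%, 14.7%, 47.3% and 14.2%. *Tal1*, *Fli1* and *Gata2* were below 1 FPKM in MES and passed only through HB, so they could only rise there. The cofactors of RUNX and GFI1 proteins include histone deacetylases, CoREST and TLE corepressors. The counts called were 0 of 16 tested from MES to HB (5.83% of all genes), 1 of 18 from HB to HE (13.5% of all genes; *Rcor2*, a CoREST gene, 26.6 to 4.67 FPKM), and 2 of 18 from HE to HP (14.7% of all genes), *Gfi1b* and the kinase gene *Hipk2* (1.21 to 11.2 FPKM). These shares are near those of all genes. Of 17 cofactors tested from HP to MAC, 2 rose and 4 fell (47.3% of all genes changed). Of 16 tested from ESC to MES, 1 rose and 3 fell (14.2% of all genes changed). So few genes are a description only. Skeletal genes known as RUNX2 targets were mostly low, with 3 or 4 of 12 reaching 1 FPKM at any transition. However, *Spp1* was at 63 FPKM in ESC, 25.1 in HP and 11303 in MAC, and *Col1a2* was at 66 FPKM in HE. From ESC to MES 2 of the list were called, 0 from MES to HB, 3 from HB to HE, 2 from HE to HP and 4 from HP to MAC. The shares of all genes at these steps are those given above, and so few tested genes are a description only.

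The genes most alike to *Gfi1* over the 6 stage values were the ETS factor gene *Erg* (Pearson's r 0.999), *Gad2* (0.996) and *Gja4*, which encodes a connexin of arterial endothelium (0.994). *Erg* was at 0.768 FPKM in HB, 20.8 in HE and 7.44 in HP. For *Runx1* they were *Ppfia1* (0.986), *Fam58b* (0.982) and *Tab2* (0.973), which rise less steeply; *Ppfia1* went from 10 FPKM in ESC to 20.3 in HP. The nearest patterns to *Runx2* were *Ninj1*, *Syngr2* and *Nfam1* (0.996 to 0.997), all highest in MAC, and those to *Runx3* were *Ddx31*, *Ldha* and *Exosc4* (0.964 to 0.977), but both members were too low for their order to be read. With 6 points and 9300 genes compared, high values are bound to occur, and these are given as a description. *Runx1* and *Gfi1* themselves had an r of 0.41.

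In fibroblasts, *Runx1* was present before any treatment and *Runx2* was next in level. *Runx1* stood at 19.9 FPKM in uFIB at day 12 and at 24.5 at day 21, with 39.6 and 31 in SL, 41.7 and 37.4 in SFGL, and 20.5 and 24.8 in FGL. All 4 SL and SFGL libraries lie above the 4 of uFIB and FGL. The share of all genes that separate these libraries in such a way was not counted. At day 12 the difference from uFIB was 0.96 (1.99-fold) in SL and 1.03 (2.09-fold) in SFGL on the log2(FPKM + 1) scale, and at day 21 it was 0.33 and 0.59. In a limma fit of all 8 libraries with treatment and day as terms, which asks whether a difference is larger than the disagreement between the days, *Runx1* rose by 0.64 ± 0.18 (SE) in SL (limma, adjusted p = 0.0319) and by 0.81 ± 0.18 in SFGL (adjusted p = 0.0129), and differed by 0.03 ± 0.18 in FGL (adjusted p = 0.99). These calls depended on single libraries: in SL the adjusted p became 0.179 without uFIB of day 12 (0.46), 0.176 without SL of day 12 (0.40) and 0.0524 without either SFGL library, and in SFGL it became 0.0845 without uFIB of day 12 and 0.0833 without SFGL of day 12.

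Such a change was common among all genes. In the same fit of 12517 genes with at least 1 FPKM in at least 2 libraries, 52.3% were called in SL, 58.7% in SFGL, and 0.016% (2 genes, *Lmo2* and *Gata2*, named because they were the only ones) in FGL. Called members were 3 of 5 in SL, 4 of 5 in SFGL and 0 of 5 in FGL, which for SL and SFGL is near the share of all genes. In addition, *Gfi1* and *Runx3* passed the filter only through treated libraries. The 3 comparisons share the uFIB libraries, and only 3 residual degrees of freedom stand behind the fit.

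*Runx2* was at 15 FPKM in uFIB at day 12 and at 14.9 at day 21. It was measured at 12.3 and 9.35 in SL, 13.7 and 6.78 in SFGL, and 10.6 and 14.5 in FGL. Every treated library was below both uFIB libraries, though FGL of day 21 only slightly (14.5 against 14.9 FPKM). How many of all genes do the same was not counted. The differences of the days varied, with -0.12 at day 12 and -1.03 at day 21 in SFGL. *Runx2* was called in no treatment, and in FGL the fit gave -0.25 ± 0.31 (limma, adjusted p = 0.958). It gave -0.44 ± 0.31 for SL (limma, adjusted p = 0.27) and -0.58 ± 0.31 for SFGL (adjusted p = 0.159). The latter rested on single libraries: it was -1.04 without SFGL of day 12 (adjusted p = 0.038), -0.11 without SFGL of day 21 (adjusted p = 0.769), and between these values without any other library. The share of *Runx1* in the summed RUNX FPKM was 56.8% and 61.3% in uFIB, 76.1% and 75.9% in SL, 72.8% and 82.1% in SFGL and 65.6% and 62.2% in FGL, and that of *Runx2* went from 42.6% and 37.4% in uFIB to 14.9% in SFGL at day 21.

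**Figure D2:**
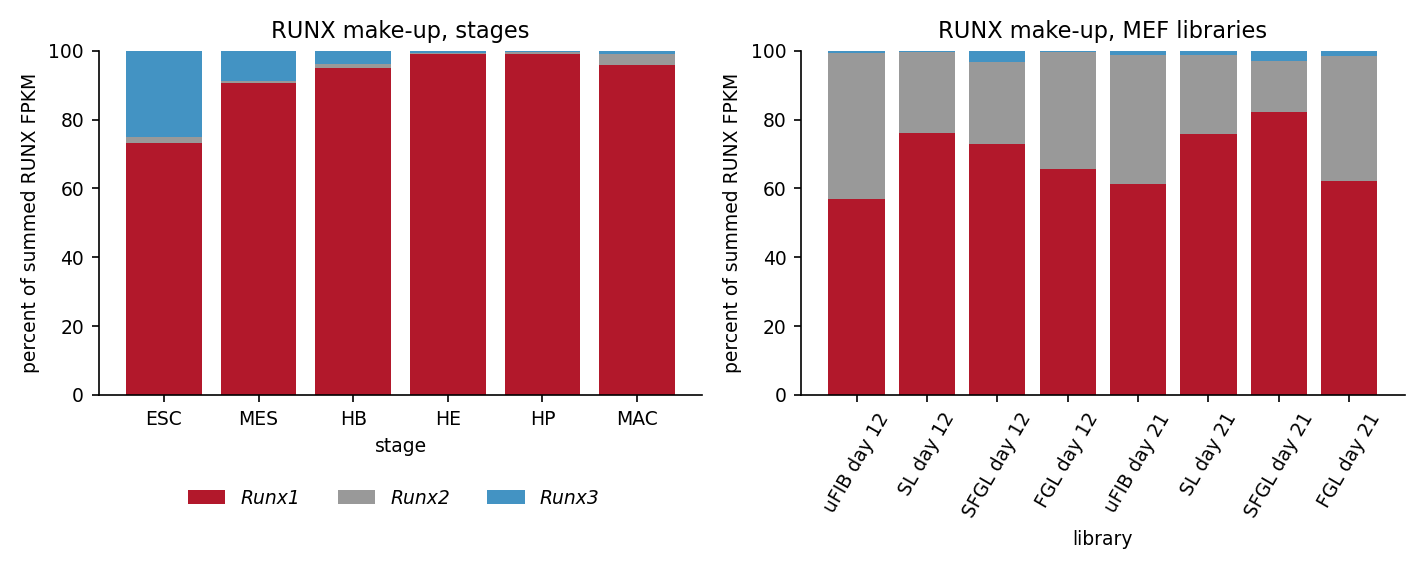
Share of *Runx1*, *Runx2* and *Runx3* (colours) in the summed RUNX FPKM (vertical axis, percent) in each stage (left) and each MEF library (right). *Runx1* makes up 99% of the sum in HP, whereas *Runx2* holds 42.6% in uFIB at day 12 and 14.9% in SFGL at day 21.

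*Runx3* was low in all libraries but the pair of SFGL. At day 12 and day 21 it was at 0.222 and 0.538 FPKM without factors, at 0.161 and 0.512 with SL, at 0.146 and 0.58 with FGL, and at 1.9 and 1.36 with SFGL. Thus only the SFGL libraries exceeded 1 FPKM, and within each day the other 3 libraries lay close together. The fit gave 0.93 ± 0.23 against uFIB (limma, adjusted p = 0.0185), which became 0.0997 without uFIB of day 12 and 0.0642 without uFIB of day 21, and 0.98 ± 0.23 against SL with an adjusted p of 0.429. As the gene was tested only because of the SFGL libraries, it could not be fitted after leaving out either of them. The T cell markers *Cd3e*, *Cd4* and *Cd8a* were at 0 in 6 libraries and summed to 0.0498 FPKM in SFGL at day 12 and 0.0676 in FGL at day 12.

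*Cbfb* (chr8:105170674-105217989 in GENCODE M21, plus strand), the common partner, moved in the opposite direction to *Runx1*. Its level at day 12 and day 21 was 52.3 and 47.2 FPKM without factors, 30.8 and 22 with SL, 27.2 and 20.2 with SFGL and 37.8 and 45.6 with FGL. All SL and SFGL libraries were below all of uFIB and FGL. How many of all genes do the same was not counted, and 52.3% and 58.7% of all genes were called in SL and SFGL in the fit. The per-day differences were -0.75 and -1.07 in SL, -0.92 and -1.18 in SFGL and -0.46 and -0.05 in FGL. In the fit *Cbfb* fell by 0.91 ± 0.19 in SL (limma, adjusted p = 0.0126) and by 1.05 ± 0.19 in SFGL (adjusted p = 0.0064). The SL call was lost without uFIB of day 12 (adjusted p = 0.0624), without uFIB of day 21 (0.0656) and without SL of day 21 (0.0799), while that in SFGL remained in all 8 fits. In FPKM, *Cbfb* stood at 1.49 and 1.18 times the summed RUNX genes in uFIB and at 1.21 and 1.14 times in FGL, but at 0.591 and 0.538 times in SL and 0.474 and 0.444 times in SFGL. Within the 4 SL and SFGL libraries the summed fibroblast markers have the same order as *Cbfb*, and their part in the fall of *Cbfb* was not tested.

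*Gfi1* showed the widest range of the 5 genes. It was listed at 0 in uFIB at day 12 and at 0.234 FPKM at day 21, and reached 62.4 and 36.5 FPKM in SL and 61.7 and 21.2 in SFGL. In FGL it was at 5.16 FPKM at day 12 and listed at 0 at day 21. The groups of SL and SFGL do not overlap with uFIB or FGL, and day 12 was above day 21 in both SL and SFGL. As for *Runx1*, the share of all genes with such a separation was not counted. At day 21 the ratio to uFIB was 156-fold in SL and 90.7-fold in SFGL; for day 12 no fold is given. The fit gave increases of 5.46 ± 0.65 in SL (limma, adjusted p = 0.0022), 5.07 ± 0.65 in SFGL (adjusted p = 0.002) and a difference of 1.16 ± 0.65 in FGL (adjusted p = 0.943), whose size depends on the pseudocount (1.99 with 0.1) and on single libraries. Without FGL of day 21 it was 2.15, without uFIB of day 21 it was 2.12, without uFIB of day 12 it was 0.20 and without FGL of day 12 it was 0.17, none of them called. *Gfi1b* was high in the same libraries: it was listed at 0 in uFIB and at 15.7 and 24.9 FPKM in SL, 20.1 and 41.5 in SFGL and 3.75 and 0.0613 in FGL. The ratio of *Gfi1* to *Gfi1b* was 3.98 and 1.47 in SL and 3.08 and 0.512 in SFGL, lower at day 21 than at day 12 in both.

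**Figure D3:**
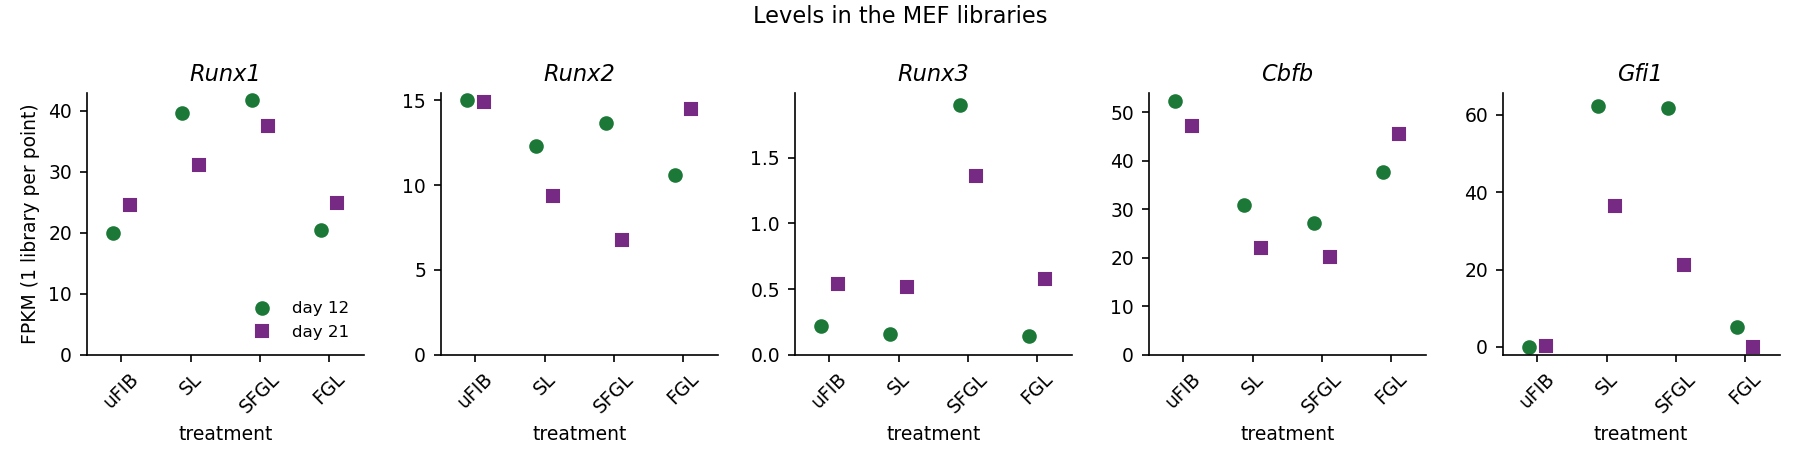
FPKM (vertical axes, which differ between genes) of the 5 genes in the 8 MEF libraries by treatment (horizontal axis) and day (circles day 12, squares day 21), 1 library per point. *Runx1* and *Gfi1* are high and *Cbfb* is low in SL and SFGL, and *Runx3* exceeds 1 FPKM in SFGL only.

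Taken day by day at the 2-fold limit, 1 of the 5 was called in SL at day 12 (*Gfi1*, against 27.6% of all genes), 3 in SFGL (*Runx1*, *Runx3* and *Gfi1*, against 31.6%) and 1 in FGL (*Gfi1*, against 3.26%). At day 21 the members called were 2 in SL (*Cbfb* and *Gfi1*, against 24.2%), 3 in SFGL (*Runx2*, *Cbfb* and *Gfi1*, against 29.8%) and 0 in FGL (against 0.855%). These comparisons of single libraries were not tested.

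SFGL, which by its label adds *Fli1* and *Gata2* to the SL pair, showed no difference from SL that passed the test. *Fli1* RNA was not higher in SFGL (41.2 FPKM at day 12 and 27.8 at day 21) than in SL (46.7 and 34.4). *Gata2* was at 110 and 132 FPKM in SFGL and already at 68.8 and 62.6 in SL. The comparison is therefore one of labels, and the effect of added *Fli1* cannot be read from it. Between SFGL and SL, limma called 0 genes of 12517 (0% of all genes) at an adjusted p of 0.05, although 1083 (8.65%) had an unadjusted p under 0.05. The members differed by 0.17 ± 0.18 (*Runx1*), -0.13 ± 0.31 (*Runx2*), 0.98 ± 0.23 (*Runx3*), -0.14 ± 0.19 (*Cbfb*) and -0.39 ± 0.65 (*Gfi1*). Between FGL and SL, which differ by *Scl* on one side and by *Fli1* and *Gata2* on the other, 48.2% of genes were called. *Runx1* was lower in FGL by 0.61 ± 0.18 (difference -0.61, limma adjusted p = 0.0395), *Gfi1* differed by -4.30 ± 0.65 (adjusted p = 0.005) and *Cbfb* was higher by 0.66 ± 0.19 (adjusted p = 0.0381). The *Runx1* call was lost without 5 of the libraries in turn (both SFGL, both FGL and SL of day 12, adjusted p 0.0626 to 0.214), the *Cbfb* call without any library other than FGL of day 12 (0.0564 to 0.202), and the *Gfi1* call held in all 8 fits.

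**Figure D4:**
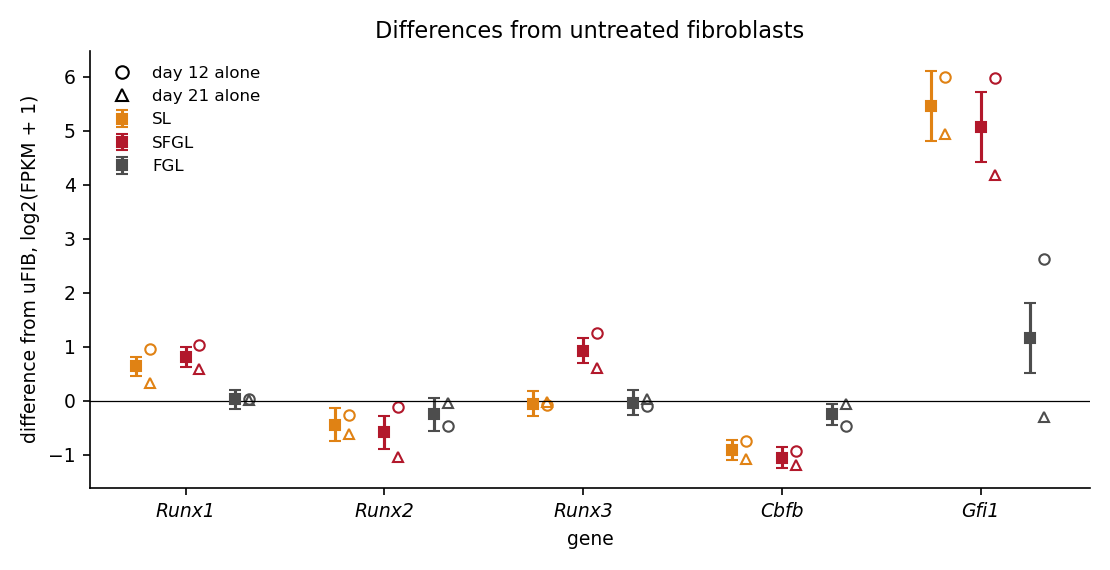
Difference from uFIB on the log2(FPKM + 1) scale (vertical axis) for each gene and treatment: filled squares with bars are the limma estimate over both days ± SE, open circles day 12 alone and open triangles day 21 alone. *Gfi1* is raised by 5.46 in SL and 5.07 in SFGL, *Runx1* by less than 1, and *Cbfb* lies below 0; in FGL the days differ for *Gfi1*.

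The blood targets of RUNX1 were high in the same libraries as *Gfi1*. Of 18 tested, 15 rose and 1 fell in SL (median difference 4.53 against -0.03 over all genes) and 16 rose and 2 fell in SFGL (median 5.33 against -0.04), with none called in FGL (median 1.1). The shares of all genes called were 52.3%, 58.7% and 0.016%. Many of the list, such as *Sfpi1*, *Mpo* and *Myb*, were below 1 FPKM in both uFIB libraries. These passed the filter only through libraries with factors, so their direction was set by the filter and the counts are a description. Named as the exceptions, the falling genes were *Myl9* in both and *Cebpa* in SFGL. The neutrophil granule genes *Mpo* and *Elane* had the largest differences in SL, with 8.31 ± 1.5 (limma, adjusted p = 0.0075) and 7.27 ± 1.4 (adjusted p = 0.0091), beside the cytokine receptor gene *Csf2rb* and *Myb*. *Mpo* was at 853 and 288 FPKM in SFGL, at 117 in FGL at day 12 and at 0.596 in FGL at day 21. Of the skeletal targets of RUNX2, 8 of 12 were tested; 4 fell in SL, 5 in SFGL and none was called in FGL, while no gene rose. The number called is near the 52.3% and 58.7% of all genes in SL and SFGL. They were led by *Phex*, a gene of bone mineralization (at day 21, 29.4 FPKM without factors, 1.47 with SL and 0.499 with SFGL), and by the collagens *Col1a2*, *Col1a1* and *Col10a1*, of which *Col1a1* and *Col1a2* are also in the fibroblast marker list.

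Among the 22 cofactors, 8 rose and 5 fell in SL and 8 rose and 7 fell in SFGL, with a median difference of 0.01 and -0.08, so that 13 and 15 of 22 were called, near the 52.3% and 58.7% of all genes. *Gfi1b* and the corepressor gene *Cbfa2t3* (0.0517 FPKM at day 12 without factors, 17.5 with SL and 23.6 with SFGL) rose most, and the largest falls were those of *Tle2* (18.4 to 7.46 and 5.14 FPKM at day 12) and *Runx1t1* (8.06 to 2.53 and 1.85 FPKM), a relative of *Cbfa2t3*. None of the 22 was called in FGL. Of 10 tested regulators of the *Runx1* enhancers, 7 rose in SL and 8 in SFGL, and *Meis1* (named as the exception) fell in both. *Lmo2* and *Gata2* rose in FGL. The shares of all genes called were 52.3% in SL, 58.7% in SFGL and 0.016% in FGL. *Tal1*, *Gata1*, *Lyl1* and *Myb* were below 1 FPKM in both uFIB libraries. They passed the filter only through libraries with factors, so their direction was set by the filter. *Tal1*, *Lmo2*, *Gata2* and *Fli1* are themselves among the delivered factors. Reads from the transgene and from the gene itself cannot be told apart. Of 9 endothelial genes tested, 6 rose in SL, and 5 rose and *Eng* fell (named as the exception) in SFGL, with none called in FGL. The 6 of 9 in SL and in SFGL is also near the share of all genes. *Pecam1*, *Cdh5*, *Esam*, *Sox7* and *Vwf* were below 1 FPKM in both uFIB libraries. These passed the filter only through libraries with factors, so their direction was set by the filter. *Pecam1* had the largest difference in SL and in SFGL.

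Over the 8 libraries, the genes most alike to *Runx1*, *Cbfb* and *Gfi1* separated SL and SFGL from the others without overlap, as these members did. They were picked for their likeness over the same libraries, so this separation was set by the choice and is no further result. The genes most alike to *Gfi1* were *Mogat2* (Pearson's r 0.999), the NADPH oxidase subunit gene *Ncf4* (0.998) and *Cenpk* (0.998). For *Cbfb* they were *Clpx* (0.992), *Glt25d1* (0.990) and *Mrfap1* (0.990). The nearest to *Runx1* were *Eme1* (0.992), *Socs1*, a feedback inhibitor of cytokine signalling (0.989), and *Mlec* (0.989). *Gm5617*, *Cirbp* and *Tubgcp2* were nearest to *Runx2* (0.953 to 0.977), and *Hint3*, *Stat5a* and *Mien1* to *Runx3* (0.918 to 0.968). *Runx1* and *Cbfb* had an r of -0.77, *Runx1* and *Gfi1* of 0.85 and *Runx2* and *Cbfb* of 0.82. All of these rest on 8 points that share their treatments, and are a description.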

How the data were processed

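RNA-seq of 5 differentiation stages (2 replicates each), an HE column from another series and 8 MEF libraries was used. FPKM values were used as the authors deposited them, combined over replicates per TSS for the stages and per library for the MEFs. According to the study's methods, stage reads were aligned with SHRiMP to mm10 (GRCm38), reads that mapped to 1 position were kept, duplicates were removed and Cufflinks was run; the processing notes name TopHat and Cufflinks for the MEFs. Removing multiply mapping reads lowers genes with near-identical copies. Versions are not given in the sources used here.

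TSS rows were summed per gene. Values were compared on log2(FPKM + 1), within each table only, since the tables were normalized separately. A gene was called at a difference of at least 1 with at least 1 FPKM in the higher column. For both days together limma 3.58.1 (R 4.3.3; lmFit, eBayes with trend, two-sided, Benjamini-Hochberg, adjusted p of 0.05) was fitted to the 8 libraries with treatment and day as terms. This fit tests treatment against the disagreement of the days; the p-values cover only the spread between these libraries. FPKM hide the number of reads: among values under 0.3 FPKM, 15% to 19.1% of genes shared the step of 1 read, so whole reads were not recovered and no count test was run. From those steps, relative depth ran from 0.587 (FGL of day 21) to 1.56 (SL of day 12), with uFIB of day 12 at 1.

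The named genes were the members, the 3 genes most alike to each (Pearson's r, genes with at least 5 FPKM in at least 1 column), and from each list at most 4 with the largest difference. The members and lists were chosen with earlier results of these data known. Promoters came from RefSeq, and words were searched on both strands. Fold calls and limma were tested on simulated data. Alternatives were a pseudocount of 0.1, equal upper quartiles, no filter, a fold limit of 4, the mean of both uFIB libraries, no HE, no day term and leaving out each library. Python 3.11.15, NumPy 2.4.6, pandas 2.3.3 and matplotlib 3.10.9 were used.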

Additional observations from a re-analysis of the deposited data

Results flagged for a closer look

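The difference of *Gfi1* between the library labelled FGL and uFIB ran in opposite directions on the 2 days, with 2.62 at day 12 and -0.30 at day 21 on the log2(FPKM + 1) scale. The level was 5.16 FPKM against a listed 0 at day 12, and a listed 0 against 0.234 FPKM at day 21. There is 1 library on each day, and the difference between the days was not tested. In the same pair of libraries, *Tal1* stood at 7.04 and 0.0705 FPKM, *Gfi1b* at 3.75 and 0.0613 FPKM, and the summed neutrophil and mast cell markers at 166 and 2.23 FPKM; their part in the difference was not tested.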

How the results depend on the processing

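With a pseudocount of 0.1 low genes weighed more: the number of genes changed was 2368 from ESC to MES (1510 with 1), 1004 from MES to HB (595) and 223 for FGL at day 21 (100), and from HE to HP 2 members were called (*Runx1* and *Gfi1*, the only members with at least 1 FPKM there). On that scale *Runx1* differed by 2.86 from MES to HB, *Gfi1* by 3.32 from HB to HE and by -3.90 from HP to MAC, by 9.29 (SL), 9.27 (SFGL) and 5.72 (FGL) on day 12 and by 6.78 (SL) and 6.0 (SFGL) on day 21, and *Runx3* by 2.64 in SFGL at day 12. At a fold limit of 4 the counts were 188, 88, 354, 319 and 2129 over the 5 transitions in order, with 0 members from MES to HB, from HB to HE and from HP to MAC. After scaling to the same upper quartile 2 members changed from HP to MAC. Against the mean of both uFIB libraries *Runx1* in SFGL at day 12 was at 0.89, under the limit. Values without a test were counted as moved past a shift of 0.58 (about 1.5-fold) or where a call was lost, as no replicate spread was available.

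No paired analysis was possible for the stages because the replicates are combined. In the MEFs the day served as the block; without it, genes changed in FGL numbered 1 instead of 2, *Cbfb* in FGL against SL kept 0.66 with a limma adjusted p of 0.0557, and no other call of a member changed. Without a filter FGL had 1 changed gene, and FGL against SL gave -0.61 for *Runx1* (adjusted p = 0.0551) and 0.66 for *Cbfb* (adjusted p = 0.0538).

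Leaving out each library in turn leaves 1 library in an arm, which is assumed to vary like the others. Estimates then ran from 0.40 to 0.88 for *Runx1* and -1.09 to -0.72 for *Cbfb* in SL, from 0.63 to 0.99 for *Runx1* and 0.86 to 1.01 for *Runx3* in SFGL, and, for FGL against SL, from -0.85 to -0.37 for *Runx1* and 0.35 to 0.96 for *Cbfb*. Among differences that were not called, *Runx2* in SFGL ran from -1.04 to -0.11 and *Gfi1* in FGL from 0.17 to 2.15. The genes changed numbered 3756 to 6408 in SL, 3024 to 5435 for FGL against SL, and 0 to 22 in FGL, with 22 without FGL of day 21 and 0 without either uFIB library. The count for SL was lower by over 1.5-fold without uFIB of day 12 (3859), SL of day 12 (3756) and SL of day 21 (4068), and for FGL against SL without SL of day 12 (3024), SL of day 21 (3510) and FGL of day 21 (3553). No direction of a called member reversed. FPKM without reads or replicates give no interval for a single value, which limits most the values under 1 FPKM.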
